A study of Mus musculus with 12 samples.

Results

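Genes that astrocytes switch on when they become reactive were compared between wild-type mice and mice lacking either form of interleukin-1, in spinal cord after injury. The 33 genes were chosen by symbol, and each was read from the brightest probe set that the platform annotation gives to that gene alone. Of these, 31 were measured, among 19938 genes in all. Ggta1 had no probe set listed under its symbol, and the probe set of Gbp2 also carries the symbol Gbp2b, so these 2 genes were not analysed here.

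The data were 12 whole-transcript microarrays, 4 from wild-type C57BL/6 mice, 4 from Il1a KO mice and 4 from Il1b KO mice, all on the C57BL/6 background and 8 to 12 weeks old. Every mouse had received a 50 kdyn contusion of the cord with the Infinite Horizon device, and total RNA came from 6 mm of cord around the lesion, 24 h after injury. The labels give no promoter or cell type for the deletions. All groups share the injury, so how far injury itself had moved these genes was not measured. The labels call the arrays of a group biological replicates without naming animals, and the p-values measure the spread between these arrays.

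Astrocytes, the star-shaped support cells of the central nervous system, answer injury with hypertrophy and a changed set of transcripts. They build more intermediate filament, secrete acute-phase and matrix proteins and raise calcium-binding and membrane proteins. In culture, interleukin-1α acts with tumour necrosis factor and the complement protein C1q to bring astrocytes into one such state, and signalling through STAT3 and NF-kB drives many of the genes. Earlier mouse studies sorted reactive astrocyte genes into a pan-reactive set, a set tied to systemic inflammation and a set tied to ischaemia. Many of the genes are not confined to astrocytes: Timp1, Lcn2, Cd44, Srgn, Lgals3 and the S100 and annexin genes are also made by blood-derived leukocytes, endothelium or fibroblasts.

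Values are log2 expression values, so a difference of 1 is a doubling. Differences were tested with limma over all 12 arrays, and a gene passed at a Benjamini-Hochberg adjusted p under 0.05 over all 19938 genes. The Il1a KO and Il1b KO comparisons with wild type share the wild-type arrays. In whole tissue, fewer cells of a type and less RNA per cell cannot be told apart.

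The targeted transcripts were low where the labels place them. Il1b averaged 7.83 in wild type and 6.42 in Il1b KO (log2 difference -1.42, limma adjusted p = 2.64e-06), and Il1a averaged 5.87 in wild type and 4.97 in Il1a KO (-0.90, adjusted p = 0.00372). Il1a was also low in Il1b KO, at 5.10 (-0.77, adjusted p = 0.0039). Pairs of arrays correlated at 0.993 to 0.9985 over genes. Il1a KO replicate 1 stood apart in its sex-linked transcripts, with Xist at 6.47 against 11.9 to 12.2 in the other 11 arrays and Eif2s3y at 9.15 against 3.65 to 3.94. No sex is given in the labels used here. The counts of members, and the single differences that this array moved by more than 1.5 times, are therefore also given without it. Astrocyte transcripts were plainly present in every array: the mean of 18 general astrocyte genes, among them Aqp4, Slc1a2, Gja1 and Aldoc, lay between 10.95 and 11.08.

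Reactive astrocyte genes were lower in Il1a KO cord than in wild type by small amounts, and none passed over all genes tested. Of the 31, 30 had a negative log2 difference, against 49.8% of all genes, and their median difference was -0.12 (1.09-fold lower), against 0.00033 for all genes. An unadjusted p under 0.05 was found for 15 of them, or 48.4%, all lower, beside 8.32% of all genes. The 4 Il1a KO arrays lay below all 4 wild-type arrays for 6 members, Gfap, Vim, Timp1, Steap4, Tm4sf1 and Slc10a6, or 19.4%, beside 2.19% of all genes. The adjusted p was under 0.05 for 0 of 31 members with limma, where 0.171% of all genes, 34 in number, passed. Without wild-type replicate 1, 2 members passed (S100a10 and Tm4sf1). Without Il1a KO replicate 1, 27 members were negative with a median of -0.09, and 11 had an unadjusted p under 0.05, beside 5.60% of all genes.

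In Il1b KO the same genes stood closer to wild type. Of the 31, 24 had a negative difference, against 48.0% of all genes, with a median of -0.05 against 0.0040 for all genes. Vim, Nes, Cp, Tgm1 and Iigp1, 16.1% of the members, had an unadjusted p under 0.05, all lower, beside 13% of all genes, so that share was near the background. Vim was the 1 member whose Il1b KO arrays all lay below wild type, or 3.23% of the members beside 1.94% of all genes. No member passed the adjusted threshold (0 of 31), where 0.813% of all genes, 162 in number, did. Leaving out Il1b KO replicate 1 or 2 brought the members with an unadjusted p under 0.05 to 3. The share of all genes in these refits is not given here.

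Set directly against each other, the knockouts differed in 1 member past the threshold: Tm4sf1 was lower in Il1a KO than in Il1b KO. The background here was 130 genes, or 0.652%. Of the 31 members, 26 were lower in Il1a KO, against 52.7% of all genes, and the median was -0.09 against -0.0042 for all genes. An unadjusted p under 0.05 was found for 10 members, or 32.3%, beside 7.79% of all genes: Gfap, Timp1, S100a10, Cd44, Tm4sf1, Hspb1, Lgals1 and Lgals3 were lower in Il1a KO, and Nes and Iigp1 higher. The arrays did not overlap, with Il1a KO below, for Gfap, S100a10, Cd44, Tm4sf1 and Lgals1 (16.1%, beside 4.69% of all genes), and with Il1a KO above, for Nes (3.23%, beside 2.55%). Without Il1a KO replicate 1, 0 members passed, 6 had an unadjusted p under 0.05, beside 6.97% of all genes, and 23 were lower in Il1a KO, with a median of -0.05. The count with an unadjusted p under 0.05 was also 6 without Il1a KO replicate 3 or 4, and 5 without Il1b KO replicate 3. For these last refits the share of all genes is not given here.

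**Figure D1:**
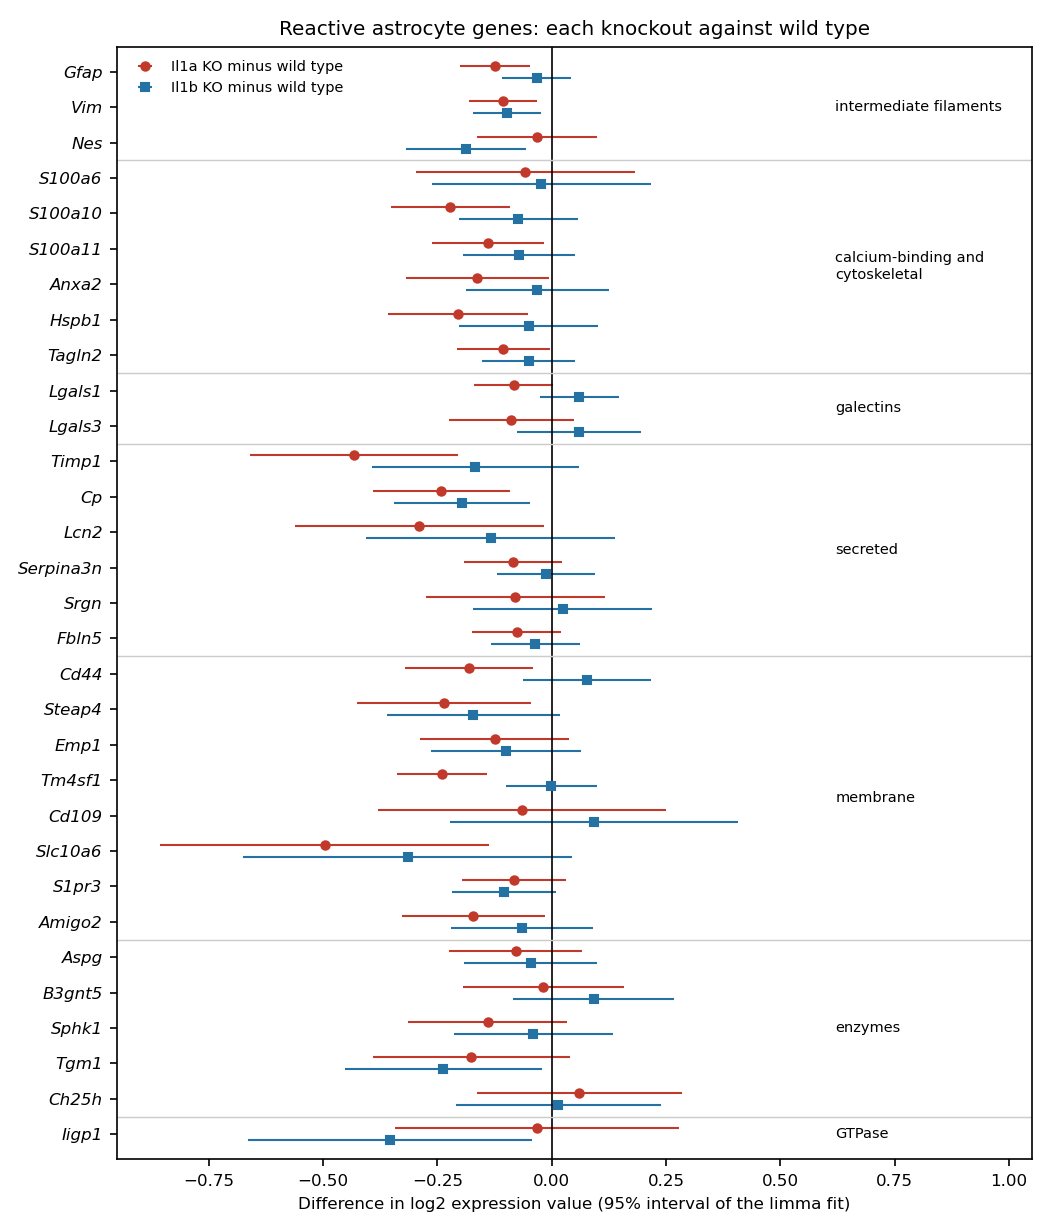
Difference in log2 expression value of each knockout from wild type (x axis) for the 31 reactive astrocyte genes (y axis, grouped by role). Circles are Il1a KO and squares Il1b KO, and bars are 95% intervals of the limma fit. The Il1a KO differences lie below 0 for 30 genes, with medians of -0.12 in Il1a KO and -0.05 in Il1b KO.

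By group means, 20 of the 31 genes ran from Il1a KO, lowest, through Il1b KO to wild type. In 6, Cd44, Cd109, B3gnt5, Srgn, Lgals1 and Lgals3, wild type lay between a lower Il1a KO and a higher Il1b KO. In 4, Nes, Tgm1, S1pr3 and Iigp1, Il1b KO was lowest and wild type highest, and Ch25h alone was lowest in wild type and highest in Il1a KO. Of the 62 pairs of neighbouring means in these orders, 46 lay closer together than the larger standard deviation (SD) of the pair. The median SD of a member between arrays was 0.127 in wild type, 0.0906 in Il1a KO and 0.103 in Il1b KO.

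The intermediate filament genes differed in how the groups were ordered. Gfap encodes the filament protein that defines astrocytes, and its wild-type arrays read 12.63, 12.73, 12.67 and 12.71. The Il1a KO arrays read 12.52, 12.56, 12.60 and 12.56, and the Il1b KO arrays 12.66, 12.66, 12.64 and 12.64. All Il1a KO arrays were below every array of both other groups, and Il1b KO lay inside the wild-type range. The Gfap difference of Il1a KO from wild type was -0.12 (SE 0.0351, 1.09-fold, limma adjusted p = 0.304), and from Il1b KO -0.09 (adjusted p = 0.51). Il1b KO differed from wild type by -0.03 (adjusted p = 0.739).

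Vim, encoding vimentin, the filament partner of GFAP in reactive astrocytes and also the filament of mesenchymal and immune cells, was similarly low in both knockouts. Wild-type arrays read 13.27, 13.36, 13.32 and 13.34, Il1a KO arrays 13.18, 13.22, 13.21 and 13.25, and Il1b KO arrays 13.24, 13.21, 13.23 and 13.22. Neither knockout overlapped wild type, and the 2 knockouts overlapped each other. The differences from wild type were -0.11 in Il1a KO (limma adjusted p = 0.361) and -0.10 in Il1b KO (adjusted p = 0.256).

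Nes, encoding nestin, a filament of neural progenitors that injured astrocytes express again, was lower in Il1b KO than in Il1a KO. Its wild-type arrays spread from 9.29 to 9.58, the Il1a KO arrays from 9.35 to 9.46 and the Il1b KO arrays from 9.23 to 9.30. Every Il1b KO array lay below every Il1a KO array, while wild type overlapped both. Il1b KO was lower than wild type by -0.19 (limma adjusted p = 0.212) and Il1a KO was higher than Il1b KO by 0.16 (adjusted p = 0.526).

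Calcium-binding and cytoskeletal genes were all 6 lower in Il1a KO at a median of -0.15, 5 with an unadjusted p under 0.05, beside 8.32% of all genes. Without Il1a KO replicate 1, 5 were lower at a median of -0.11, and 2 had such a p, S100a10 and Hspb1, beside 5.60% of all genes. S100a10, the partner of annexin A2 in a membrane complex, read 12.08, 12.35, 12.33 and 12.31 in wild type, 11.95, 12.12, 12.02 and 12.10 in Il1a KO and 12.17, 12.15, 12.24 and 12.22 in Il1b KO. Wild-type replicate 1 lay within the Il1a KO range, and Il1a KO was below every Il1b KO array. S100a10 differed by -0.22 between Il1a KO and wild type (SE 0.0604, limma adjusted p = 0.267). Leaving out wild-type replicate 1 made this -0.28 with an adjusted p of 0.0364. Hspb1, a small heat-shock protein that protects filaments, averaged 13.29 in wild type, 13.08 in Il1a KO and 13.24 in Il1b KO (-0.21 for Il1a KO, adjusted p = 0.406), with Il1a KO replicate 1 lowest of all arrays at 12.84. Without that array the Hspb1 difference was -0.13.

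Anxa2, the membrane-binding partner of S100a10, differed by -0.16 in Il1a KO (limma adjusted p = 0.568), S100a11 by -0.14 (0.513) and Tagln2, an actin-binding protein, by -0.11 (0.564). S100a6 was within the spread of its arrays in all 3 comparisons, at -0.06 (0.01 without Il1a KO replicate 1), -0.02 and -0.03 (0.04 without that array). In Il1b KO all 6 genes of this group were also below wild type, by a median of -0.05, with 0 unadjusted p under 0.05, beside 13% of all genes.

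The galectins, lectins that bind galactose-bearing glycans on the cell surface, had means below wild type in Il1a KO and above it in Il1b KO. Lgals1 read 12.24, 12.29, 12.33 and 12.34 in wild type, 12.20, 12.27, 12.17 and 12.22 in Il1a KO and 12.30, 12.37, 12.40 and 12.37 in Il1b KO. The Il1b KO arrays lay above every Il1a KO array, and wild type overlapped both groups. The Lgals1 difference between the knockouts was -0.14 (95% interval -0.23 to -0.06, limma adjusted p = 0.229). Lgals3, abundant in macrophages as well, had a difference of -0.15 between the knockouts (adjusted p = 0.599), with overlapping arrays.

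Secreted and acute-phase genes were all 6 lower in Il1a KO, at a median of -0.16 (-0.12 without replicate 1), and 5 of 6 were lower in Il1b KO, at a median of -0.08. Timp1, an inhibitor of matrix metalloproteinases, had one of the larger differences. Wild-type arrays read 11.89, 12.22, 11.91 and 12.00, Il1a KO arrays 11.36, 11.83, 11.56 and 11.54, and Il1b KO arrays 11.60, 11.92, 11.89 and 11.95. All Il1a KO arrays were below wild type, and Il1b KO lay between with overlap on both sides. Timp1 was 1.35-fold lower in Il1a KO (log2 difference -0.43, SE 0.105, limma adjusted p = 0.186), or -0.36 without Il1a KO replicate 1 (adjusted p = 0.624). Il1b KO differed from wild type by -0.17 (adjusted p = 0.539), or by -0.09 without Il1b KO replicate 1 (adjusted p = 0.827).

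Lcn2, lipocalin-2, a siderophore-binding protein of astrocytes and neutrophils, read 11.83, 12.01, 12.21 and 12.03 in wild type, 11.33, 11.99, 11.80 and 11.80 in Il1a KO and 11.81, 11.72, 11.94 and 12.07 in Il1b KO. The lowest value was Il1a KO replicate 1, and the other arrays overlapped. The Lcn2 difference in Il1a KO was -0.29 (limma adjusted p = 0.557), and -0.15 without that array (adjusted p = 0.998). Cp, ceruloplasmin, the copper-carrying ferroxidase, was lower by similar amounts in both knockouts, at 10.54 ± 0.114 (SD, n = 4) in wild type, 10.30 ± 0.0919 in Il1a KO and 10.35 ± 0.109 in Il1b KO. Its differences were -0.24 (adjusted p = 0.305) and -0.20 (adjusted p = 0.255).

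Serpina3n, a protease inhibitor strongly tied to reactive astrocytes, had group means close together, at 13.40 ± 0.0459 (SD, n = 4) in wild type, 13.31 ± 0.0623 in Il1a KO and 13.38 ± 0.0859 in Il1b KO. Srgn, the proteoglycan core serglycin of leukocyte granules, and Fbln5, an elastic fibre protein, each differed by -0.08 in Il1a KO, with overlapping arrays. Without Il1a KO replicate 1 the Srgn difference was -0.02.

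Membrane genes held the member that passed. Tm4sf1, a tetraspanin-like protein also prominent in endothelium, read 11.82, 11.99, 11.94 and 11.98 in wild type. The Il1a KO arrays read 11.63, 11.70, 11.75 and 11.71, and the Il1b KO arrays 11.87, 11.93, 11.97 and 11.97. All 4 Il1a KO arrays were below all 8 others, and Il1b KO and wild type had the same mean, 11.93. Tm4sf1 was 1.18-fold lower in Il1a KO than in Il1b KO (log2 difference -0.24, SE 0.0460, 95% interval -0.34 to -0.14, limma adjusted p = 0.0310). Against wild type the difference was again -0.24 (limma adjusted p = 0.0767), and Il1b KO differed from wild type by -0.00085 (adjusted p = 0.997).

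The size of the Tm4sf1 difference varied little over the alternative settings, while its call depended on them. Between the knockouts it lay between -0.26 and -0.22 in all 22 alternative settings and passed in 14 of them. The adjusted p was above the threshold without Il1a KO replicate 1 (0.121), 2 (0.103), 3 (0.0591) or 4 (0.0913), without Il1b KO replicate 2 (0.0784), 3 (0.118) or 4 (0.114), and when arrays were centred on their medians (0.0524). Against wild type Tm4sf1 passed in 5 of the 22, one of them without wild-type replicate 1 (adjusted p = 0.0216). The mean of 11 measured endothelial genes ranged from 9.43 to 9.52 in wild type, 9.44 to 9.47 in Il1a KO and 9.43 to 9.53 in Il1b KO. Between the knockouts, 8 of these 11 genes were lower in Il1a KO, against 52.7% of all genes, at a median of -0.08. The arrays did not overlap for 1 of them, or 9.09%, beside 4.69% of all genes. The part of endothelial genes in the Tm4sf1 difference was not tested.

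**Figure D2:**
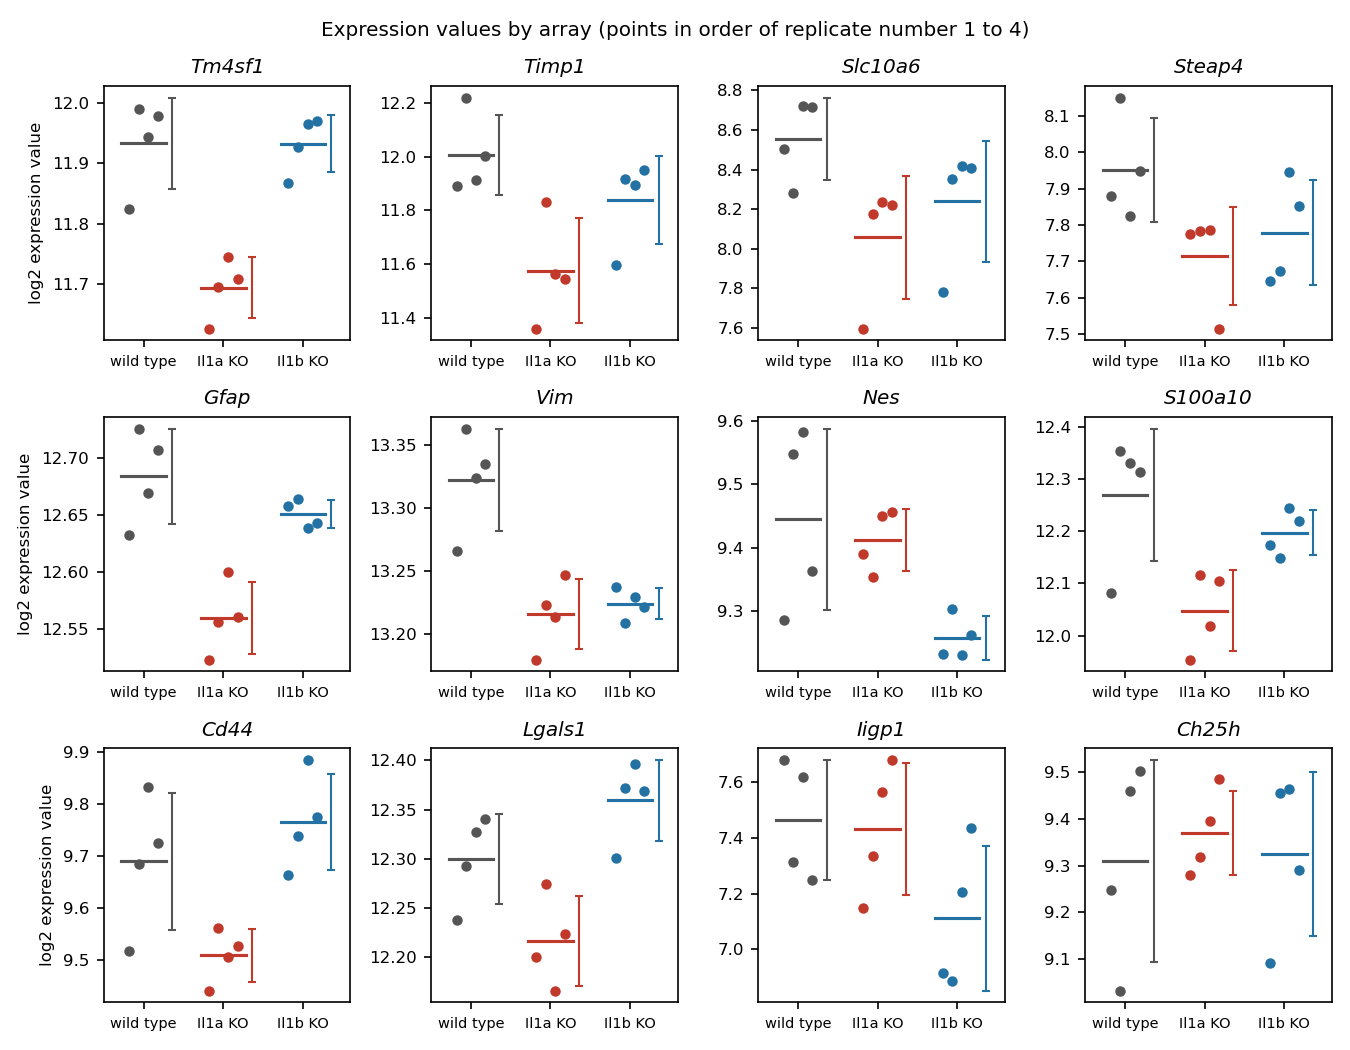
Log2 expression value (y axis of each panel, with its own range) of 12 reactive astrocyte genes in the 3 groups (x axis); points are arrays in order of replicate number, lines are means and bars are 1 SD over 4 arrays. The Il1a KO points of Tm4sf1, at 11.63 to 11.75, lie below every other point of that gene, and the Il1b KO points of Nes, at 9.23 to 9.30, lie below every Il1a KO point.

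The 250 bases upstream of the annotated start are shown for Tm4sf1, which passed, and for Steap4 and Timp1, a pair of other genes whose Il1a KO arrays all lay below wild type, to set them beside the transcription factors named above. Sequences are from RefSeq on GRCm38.p6, 5′ to 3′ on the gene's strand, at chr3:57301989-57302238 (minus strand), chr5:7960222-7960471 (plus) and chrX:20869916-20870165 (plus). Capitals mark matches to the NF-kB motif, STAT (TTCNNNGAA) or ISRE, an interferon-response element (GAAA, any 2 bases, GAAA), on either strand.
Tm4sf1: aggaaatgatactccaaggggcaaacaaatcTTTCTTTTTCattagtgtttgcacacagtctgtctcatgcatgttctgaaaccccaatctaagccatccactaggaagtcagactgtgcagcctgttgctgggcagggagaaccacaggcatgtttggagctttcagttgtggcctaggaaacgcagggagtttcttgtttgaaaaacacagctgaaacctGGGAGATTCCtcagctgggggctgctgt
Steap4: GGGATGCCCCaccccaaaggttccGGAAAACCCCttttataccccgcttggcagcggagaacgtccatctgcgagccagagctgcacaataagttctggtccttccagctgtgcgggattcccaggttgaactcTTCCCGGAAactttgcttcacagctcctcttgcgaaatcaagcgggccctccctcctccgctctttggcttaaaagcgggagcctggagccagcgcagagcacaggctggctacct
Timp1: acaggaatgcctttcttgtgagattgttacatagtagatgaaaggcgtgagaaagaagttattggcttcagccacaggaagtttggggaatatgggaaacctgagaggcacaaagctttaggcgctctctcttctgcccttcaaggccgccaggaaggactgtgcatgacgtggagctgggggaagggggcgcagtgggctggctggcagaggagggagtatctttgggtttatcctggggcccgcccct
Tm4sf1 held an NF-kB match at -28 to -19 and, on the other strand, an ISRE match at -219 to -210, counted from the start. Steap4 held a STAT match at -116 to -108 and NF-kB matches at -250 to -241 and -226 to -217. The Timp1 window held no match to these motifs or to AP-1 (TGANTCA). Among the 38 windows of the 29 listed genes with an entry, 6 held NF-kB (15.8%), 5 STAT (13.2%), 7 AP-1 (18.4%) and 4 ISRE (10.5%). Of all 32851 windows, 7.25%, 7.02%, 6.75% and 2.98% did. The listed genes give few windows per motif, and some genes have more than 1 window. Gbp2, not analysed here, is among the genes with AP-1 and with ISRE. No matches among these motifs overlapped in the printed windows, and a match in letters is not evidence of binding.

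Slc10a6, a transporter of steroid sulphates, had the largest mean difference of the members in Il1a KO. Its wild-type arrays read 8.50, 8.28, 8.72 and 8.71, the Il1a KO arrays 7.60, 8.18, 8.24 and 8.22, and the Il1b KO arrays 7.78, 8.35, 8.42 and 8.41. In both knockouts replicate 1 sat well below the other arrays. The Slc10a6 difference from wild type was -0.50 in Il1a KO (SE 0.167, 1.41-fold, limma adjusted p = 0.383) and -0.31 in Il1b KO (adjusted p = 0.448). Without its own replicate 1, the Il1a KO difference was -0.34 and the Il1b KO difference -0.16 (adjusted p = 0.868 and 0.760).

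Steap4, a metalloreductase, read 7.88, 8.15, 7.83 and 7.95 in wild type, 7.77, 7.78, 7.79 and 7.51 in Il1a KO and 7.65, 7.67, 7.95 and 7.85 in Il1b KO. The Il1a KO arrays were just below the lowest wild-type array, and Il1b KO overlapped both. Steap4 differed by -0.24 in Il1a KO (limma adjusted p = 0.452) and -0.17 in Il1b KO (adjusted p = 0.432).

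Cd44, the hyaluronan receptor of reactive astrocytes and of leukocytes, was lowest in Il1a KO. Wild-type arrays read 9.52, 9.68, 9.83 and 9.73, Il1a KO arrays 9.44, 9.56, 9.51 and 9.53, and Il1b KO arrays 9.66, 9.74, 9.89 and 9.78. Il1a KO lay wholly below Il1b KO, and only wild-type replicate 1 reached into its range. Cd44 was 1.20-fold lower in Il1a KO than in Il1b KO (log2 difference -0.26, 95% interval -0.40 to -0.12, limma adjusted p = 0.152). Leaving out wild-type replicate 1, which enters through the shared variance, gave an adjusted p of 0.0463.

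The remaining membrane genes overlapped between groups when all arrays were used. Amigo2, an adhesion protein, differed by -0.17 in Il1a KO (limma adjusted p = 0.541), Emp1, an epithelial membrane protein, by -0.13, S1pr3, a receptor for sphingosine-1-phosphate, by -0.08, and Cd109, a surface protein that binds transforming growth factor β, by -0.06 (0.02 without Il1a KO replicate 1). In Il1b KO the same genes differed by -0.07, -0.10, -0.10 and 0.09. Without Il1b KO replicate 1 the Emp1 and S1pr3 differences there were -0.05 and -0.06. Without Il1a KO replicate 1 the Amigo2 difference in Il1a KO was -0.23 (limma adjusted p = 0.663). The other Il1a KO arrays of Amigo2 lay below every wild-type and every Il1b KO array. S1pr3 was then also below every wild-type array (-0.11), while Emp1 and Cd109 still overlapped. The share of all genes with no overlap in that refit is not given here. Cd109 had the widest spread of any member in wild type (SD 0.242, n = 4).

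Enzyme genes showed small differences in Il1a KO, with 0 of 5 below an unadjusted p of 0.05, beside 8.32% of all genes, and a median of -0.08, or -0.04 without Il1a KO replicate 1. Sphk1, the kinase that makes sphingosine-1-phosphate, differed by -0.14, Tgm1, a protein cross-linking transglutaminase, by -0.18 (-0.08 without that array), Aspg, an asparaginase, by -0.08 (-0.04 without it), and B3gnt5, a glycosyltransferase of glycolipids, by -0.02. Tgm1 was lower in Il1b KO than in wild type by -0.24 (limma adjusted p = 0.340). Ch25h, which makes 25-hydroxycholesterol, was the 1 member with a positive difference in Il1a KO, at 0.06 (0.09 without replicate 1), well within the spread of its wild-type arrays (9.03 to 9.50).

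Iigp1, an interferon-inducible GTPase of pathogen defence, was lowest in Il1b KO. Its arrays read 7.68, 7.31, 7.62 and 7.25 in wild type, 7.15, 7.34, 7.57 and 7.68 in Il1a KO and 6.91, 6.89, 7.21 and 7.44 in Il1b KO. The 3 groups overlapped. Iigp1 differed by -0.35 between Il1b KO and wild type (limma adjusted p = 0.320) and by -0.03 between Il1a KO and wild type, or 0.06 without Il1a KO replicate 1.

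Sorted by the sets of the earlier literature, the 11 pan-reactive genes (Gfap, Vim, Timp1, Cd44, Cp, Lcn2, Serpina3n, Steap4, Aspg, Hspb1 and S1pr3) were all negative in Il1a KO at a median of -0.18, 8 with an unadjusted p under 0.05, beside 8.32% of all genes. Without Il1a KO replicate 1 the median was -0.13 and 7 had such a p, beside 5.60% of all genes. In Il1b KO 10 of the 11 were negative at a median of -0.10, and 2 had such a p, a share near the 13% of all genes. The 8 ischaemia-associated genes (S100a10, Emp1, Tm4sf1, Cd109, B3gnt5, Sphk1, Slc10a6 and Tgm1) were all negative in Il1a KO at a median of -0.16, 3 with such a p, and 6 were negative in Il1b KO at -0.06. Without Il1a KO replicate 1, 7 of the 8 were negative in Il1a KO at -0.09, again 3 with such a p. Of the 6 genes tied to systemic inflammation, 4 were measured (Srgn, Fbln5, Amigo2 and Iigp1), all negative in Il1a KO at a median of -0.08 (3 at -0.06 without Il1a KO replicate 1) and 3 in Il1b KO at -0.05. The sets were not tested against each other.

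**Figure D3:**
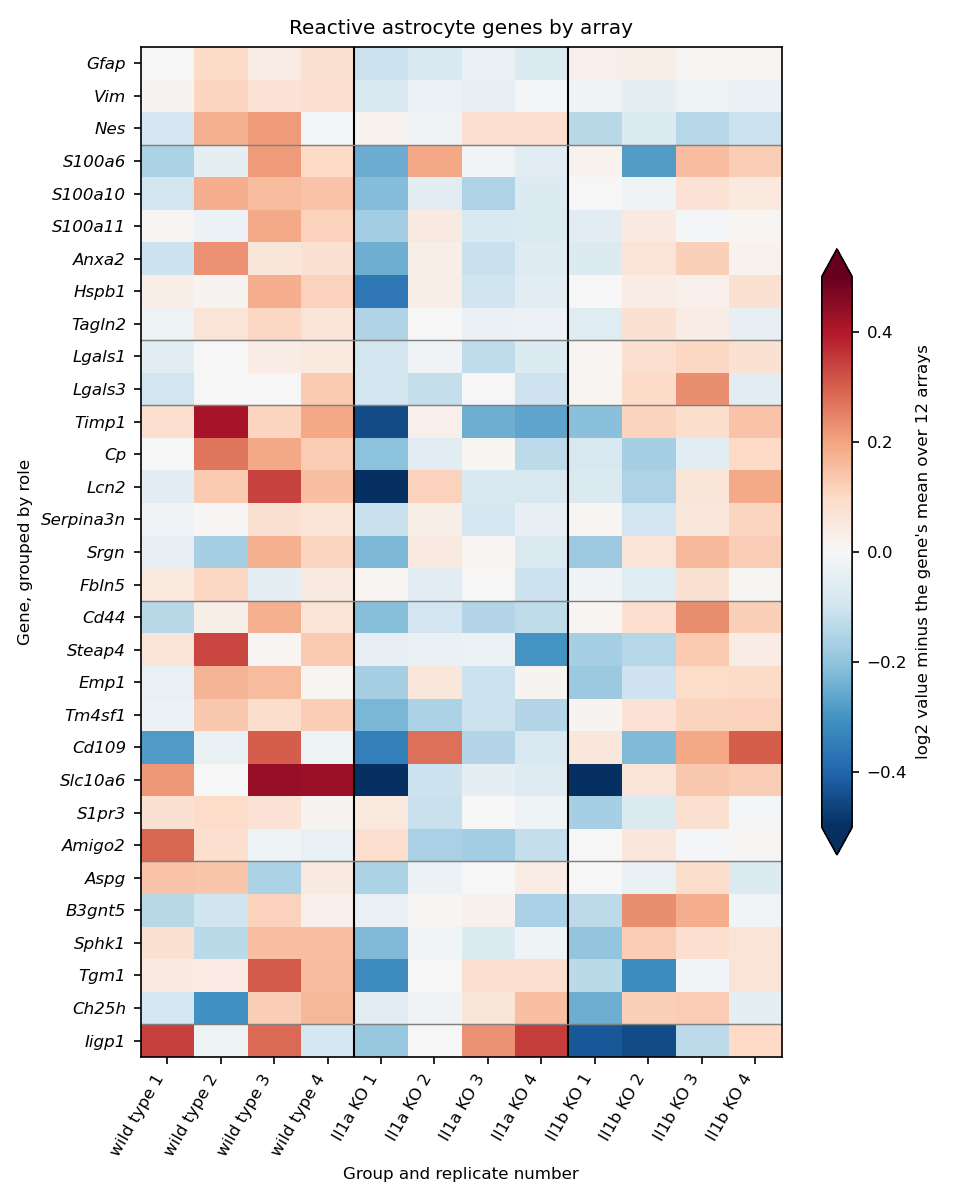
Log2 value of each reactive astrocyte gene (rows, grouped by role) in each array (columns) minus the gene's mean over the 12 arrays (colour). Il1a KO replicate 1 is lowest of all arrays for 18 of 31 genes, and wild-type replicates 2 and 3 are highest for 11 and 10.

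Arrays differed within groups as well as between them. The mean of the 31 genes was 10.47, 10.54, 10.61 and 10.56 in wild type, 10.29, 10.46, 10.43 and 10.42 in Il1a KO and 10.38, 10.44, 10.55 and 10.53 in Il1b KO. All 4 Il1a KO arrays were below the lowest wild-type array, by a narrow margin for replicate 2, and Il1b KO overlapped both groups. Il1a KO replicate 1 was lowest of the 12 arrays for 18 of the 31 genes and lowest of its group for 23. Replicate 1 was also lowest of its group for 18 genes in wild type and 16 in Il1b KO.

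General astrocyte genes were mostly higher in the knockouts by small amounts. Of 18 such genes, none of them on the reactive list, 12 were higher in Il1a KO (median 0.05) and 14 in Il1b KO (median 0.04), and their mean per array ranged from 10.95 to 11.06 in wild type, 11.03 to 11.08 in Il1a KO and 11.01 to 11.07 in Il1b KO. None passed the adjusted threshold in any of the 3 comparisons with limma; 4 had an unadjusted p under 0.05 in Il1a KO, 1 in Il1b KO and 1 between the knockouts, beside 8.32%, 13% and 7.79% of all genes, all higher in the first-named group.

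Marker genes of other cells also differed between the groups, and their part in the result was not tested. Of 17 neutrophil genes, 16 were lower in Il1a KO at a median of -0.34, and 13 in Il1b KO at -0.16. Their mean levels were 7.55 to 7.92 in wild type, 7.29 to 7.62 in Il1a KO and 7.19 to 7.81 in Il1b KO. In Il1a KO 8 of the 17, or 47.1%, had an unadjusted p under 0.05, 7 of them lower, beside 8.32% of all genes. The Il1a KO arrays lay below every wild-type array for 5, or 29.4%, beside 2.19% of all genes. In Il1b KO 6, or 35.3%, had such a p, 5 of them lower, beside 13% of all genes. Ly6g passed in Il1b KO (-0.55, limma adjusted p = 0.00869). Of 16 monocyte and macrophage genes, 11 were lower in Il1a KO at a median of -0.08 and 8 in Il1b KO at -0.01, with ranges of 9.02 to 9.32, 8.84 to 9.12 and 8.92 to 9.30. Itgam passed in Il1b KO (-0.48, limma adjusted p = 0.0384), and in 12 of 22 alternative settings. Ly6g and Itgam were each the 1 gene of their list to pass there, beside 0.813% of all genes. The monocyte and macrophage list went both ways in Il1b KO, with 8 genes lower and 8 higher, by up to 0.62. An unadjusted p under 0.05 was found for 2 of the lower and 2 of the higher genes, or 25% of the list, beside 13% of all genes. Replicate 1 of each knockout, low for the reactive genes, was also the lowest array of its group for both leukocyte lists. Wild type did not show this: replicate 1 had its lowest mean of the reactive genes, but replicate 2 was lowest for both leukocyte lists.

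Mature oligodendrocyte genes were higher in both knockouts, 13 of 13 in each, at medians of 0.16 in Il1a KO and 0.12 in Il1b KO. Their ranges were 11.44 to 11.57 in wild type, 11.61 to 11.78 in Il1a KO and 11.55 to 11.68 in Il1b KO. An unadjusted p under 0.05 was found for 8 of the 13 in Il1a KO, or 61.5%, beside 8.32% of all genes. It was found for 7 in Il1b KO, or 53.8%, beside 13%. Every Il1a KO array lay above wild type for 4, or 30.8%, beside 2.87% of all genes. Skeletal muscle genes were lower in both knockouts, 14 of 14 in each, with wild-type replicates 1 and 3 at 7.46 and 7.60 and all other arrays between 7.07 and 7.27. With both of these arrays left out, 29 reactive genes were negative in Il1a KO and the median was -0.13. An unadjusted p under 0.05 was then found for 12 of them, against 15 with all arrays. The share of all genes with such a p in that refit is not given here. Fibroblast and pericyte genes differed by medians of -0.04 in Il1a KO and 0.07 in Il1b KO. Rgs5 was the 1 of these 14 genes to pass in Il1b KO (0.22, limma adjusted p = 0.033, in 11 of 22 settings), beside 0.813% of all genes. Homeostatic microglia genes differed from wild type by medians of -0.04 in Il1a KO and -0.06 in Il1b KO. Between the knockouts, 5 of these 11 genes were lower in Il1a KO and 6 higher, at a median of 0.0076. Gpr34, higher in Il1a KO, was the 1 to pass there (0.31, limma adjusted p = 0.0299, in 9 of 21 settings), beside 0.652% of all genes. Schwann cell genes had medians of 0.10 and 0.14, and neuronal genes 0.01 and 0.02.

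**Figure D4:**
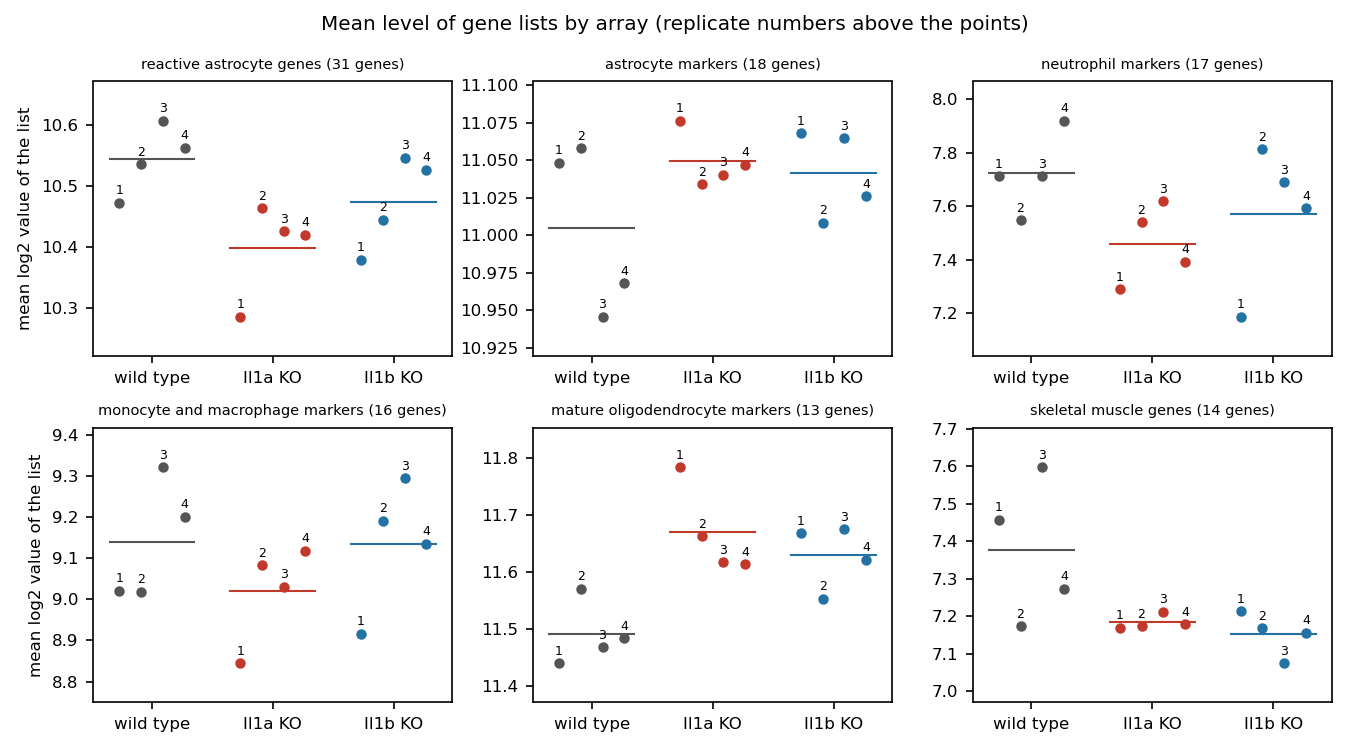
Mean log2 value (y axis of each panel, with its own range) of the reactive genes and of marker lists of other cells in each array, by group (x axis), with replicate numbers above the points and lines at the group means. The reactive genes of Il1a KO lie at 10.29 to 10.46, below wild type at 10.47 to 10.61, while the astrocyte markers of Il1a KO lie at 11.03 to 11.08, within or just above the wild-type range of 10.95 to 11.06.

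Other genes of the response were mostly lower in Il1a KO, and none passed there. Of 9 measured reactive genes that are not among the 33, 7 were negative in Il1a KO and 4 had an unadjusted p under 0.05, beside 8.32% of all genes, all 4 lower: Osmr, the oncostatin M receptor (-0.16, limma adjusted p = 0.585), Fkbp5, a glucocorticoid-induced chaperone (-0.23, 0.369), Clcf1, a cytokine of the interleukin-6 family (-0.19, 0.402), and Ptx3, pentraxin 3 (-0.27, 0.556). In Il1b KO 6 were negative, and 1, Fkbp5, had an unadjusted p under 0.05, beside 13% of all genes (-0.24, adjusted p = 0.188). Cxcl10, an interferon-induced chemokine, was higher in Il1a KO than in Il1b KO by 0.50 (adjusted p = 0.548).

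Of 17 measured genes of the STAT3 and NF-kB pathways and their targets, 15 were negative in Il1a KO at a median of -0.10, and 11 in Il1b KO at -0.03. Of all genes, 49.8% and 48.0% were negative. The Il1a KO arrays lay below every wild-type array for 2 of the 17, or 11.8%, beside 2.19% of all genes. Stat3 itself read 11.23, 11.29, 11.35 and 11.28 in wild type and 11.15, 11.17, 11.17 and 11.15 in Il1a KO, with no overlap (-0.13, limma adjusted p = 0.328), and 11.20 to 11.34 in Il1b KO. Nfkbiz, an NF-kB cofactor induced by interleukin-1, was 8.32 ± 0.0850 (SD, n = 4) in wild type and 8.13 ± 0.103 in Il1a KO, again with no overlap (-0.19, adjusted p = 0.421).

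Sox9, a transcription factor of the astrocyte lineage, was the 1 gene of this list to pass, and it did so in Il1b KO. It averaged 10.58 ± 0.0288 (SD, n = 4) in wild type, 10.56 ± 0.0510 in Il1a KO and 10.38 ± 0.0488 in Il1b KO. Sox9 was 1.14-fold lower in Il1b KO (log2 difference -0.19, SE 0.0397, limma adjusted p = 0.0405), and Il1a KO exceeded Il1b KO by 0.17 (adjusted p = 0.0928). The Sox9 call held in 8 of 22 settings, with differences from -0.22 to -0.17. It was lost without any 1 wild-type array, any 1 Il1b KO array or Il1a KO replicate 2, 3 or 4, at adjusted p-values up to 0.148 over the settings.

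Among the cytokines and complement genes that induce the reactive state, 11 of 12 were measured, and Il1a and Il1b, the targeted genes, were the only ones to pass with limma in any comparison. Il1b was higher in Il1a KO than in wild type by 0.25 (limma adjusted p = 0.465). In Il1b KO 6 of the 11 were higher than in wild type and 5 lower, at a median of 0.03. Osm, Lif and Il11, cytokines that signal through the receptor subunit gp130, were higher by 0.28, 0.24 and 0.44. These 3, or 27.3% of the list, had an unadjusted p under 0.05, beside 8.42% of all genes higher with such a p. No adjusted p of the 3 was under the threshold. Il11 read 7.53 in Il1b KO replicate 1, below the wild-type range of 7.54 to 7.79.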

How the data were processed

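Whole-transcript Affymetrix arrays of 12 injured spinal cord samples were used. The deposited values are log2 expression values per probe set (2.97 to 14.4, array medians 7.67 to 7.72). The submitters' processing notes name GCOS 1.4, RMA, limma and Partek, with no role or order. The build behind the annotation is not given in the sources used here. Among the 35557 probe sets, 21789 carry 1 gene symbol in the platform annotation, 1621 several and 12147 none listed. The brightest of a gene's single-symbol probe sets by mean over all arrays gave 19938 genes, 999 of which had more than 1 such set, and 19856 matched RefSeq symbols. Array values can compress differences, which was not measured here, and the number of arrays, 4 per group, limits the precision.

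limma 3.58.1 in R 4.3.3 fitted 1 mean per group over all 12 arrays, with eBayes, for 3 contrasts, and p-values were adjusted by Benjamini-Hochberg over all 19938 genes. The fit was tested on simulated data, with genes drawn independently and changes larger than any member difference in the main fit. That test does not measure how well differences as small as those of most members are found. Promoter windows, from RefSeq on GRCm38.p6, were searched for 4 motifs on both strands. Every listed gene is named. Of the other lists, genes past the threshold and up to 3 genes with the smallest p are named, with further genes of a list given as examples, chosen after their values were seen. The genes and lists were chosen with earlier results of these data known. Over 22 alternative settings, 10 changed normalization, filter, probe sets, variance model, array weights, replicate block or the arrays fitted, and 12 left out 1 array each. One of the 10, leaving out the 2 wild-type arrays with the highest skeletal muscle level, was chosen after seeing the data.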

Additional observations from a re-analysis of the deposited data

Results flagged for a closer look

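For each member in each group, the highest and the lowest of the 4 arrays were compared with the rest (Dixon's test at its 95% critical value). Of 93 such groups, 6 held an array that stood apart, and chance gives about 1 in 20. Slc10a6 was low in replicate 1 of both knockouts: 7.60 in Il1a KO, where the other arrays read 8.18 to 8.24, and 7.78 in Il1b KO, where they read 8.35 to 8.42. Timp1 was 11.60 in Il1b KO replicate 1 against 11.89 to 11.95. S100a10 was 12.08 in wild-type replicate 1 against 12.31 to 12.35. Steap4 was 7.51 in Il1a KO replicate 4 against 7.77 to 7.79. Amigo2 was 7.71 in Il1b KO replicate 2 against 7.65 to 7.66.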

How the results depend on the processing

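No reactive astrocyte gene changed direction with a call on either side under any of the 22 settings. For Il1a KO against wild type, members passing numbered 1 after a further quantile normalization (Tm4sf1, adjusted p = 0.0427), 1 with dim genes left out (Tm4sf1, 0.0422), 2 with a trended, robust variance model (Tm4sf1, 0.0078, and Gfap, 0.0488) and 3 with array weights (Tm4sf1, 0.00754, S100a10, 0.0273, and Gfap, 0.0438), against 0. All genes passing there numbered 74 with the trended model, 306 with array weights and 15 with only the 2 groups compared, against 34. For Il1b KO against wild type the numbers were 309, 1145 and 85, against 162, and 0 members passed in every setting. Between the knockouts 244 genes passed with array weights, against 130. Members passing were 0 with arrays centred on their medians, 2 with the trended model (Tm4sf1 and Lgals1, 0.0401), 2 with array weights (Tm4sf1 and Cd44, 0.0287) and 2 with wild-type replicates 1 and 3 left out (Tm4sf1 and Cd44, 0.0370), against 1.

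Leaving out 1 array at a time gave, for Il1a KO against wild type, 18 to 49 genes passing, 0 to 2 members passing, 10 to 15 members with an unadjusted p under 0.05, 25 to 30 negative, and medians of -0.15 to -0.09. The ranges for Il1b KO against wild type were 106 to 177, 0 to 0, 3 to 7, 21 to 26, and -0.08 to -0.04. Between the knockouts they were 88 to 146, 0 to 2, 5 to 10, 23 to 28, and -0.11 to -0.05. Of these refits, only the one without Il1a KO replicate 1 has its share of all genes with an unadjusted p under 0.05 given above. The lower counts of genes passing came without wild-type replicate 4 (18 in Il1a KO, 106 in Il1b KO), Il1a KO replicate 3 or 4 (19 each) and Il1b KO replicate 1 (107). The cause of these shifts was not tested.

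Over all genes, the replicate numbers gave no regular pairing of the arrays. Deviations of 12 same-numbered pairs correlated at -0.374 to 0.441, with 2 above 0.1, and 3 of 12 arrays correlated best with their own number. Among the 31 members, replicate 1 was lowest of its group for 18 in wild type, 23 in Il1a KO and 16 in Il1b KO. Correlations over all genes cannot decide whether the members share a replicate pattern. With a replicate block, 26, 120 and 105 genes passed in the 3 comparisons in the order above, and 1, 0 and 1 members, the first being Timp1 (adjusted p = 0.0295). Uncalled member values changed sign in 16, 27 and 16 of 682 values each.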
